A study of Danio rerio with 6 samples.

Results

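The 5 zebrafish genes of the C/EBP family named cebpa, cebpb, cebpd, cebpg and cebp1 were followed in RNA sequencing of sorted mpx-reporter cells. They were chosen by name, as the Ensembl rows carrying these symbols, and make up 5 of 32520 Ensembl genes in tables of 59330 rows. The cells came from Tg(mpx:eGFP) zebrafish, in which the mpx promoter drives green fluorescent protein, and GFP-positive cells were enriched at day 2, or 48 hours post-fertilisation. The 3 control libraries carry the genotype label WT, and the 3 others are labelled znf711 knockdown and were treated with a znf711 MO, an antisense morpholino oligonucleotide against znf711. The series' design text describes a znf711 mutant line instead, and the sample labels were followed here. Not given in the sources used here are the treatment of the control embryos and the number of embryos per library. The study's title places Znf711 with the histone demethylase Phf8 in neutrophil development.

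C/EBP proteins are basic leucine zipper (bZIP) transcription factors that bind DNA as dimers with each other or with related bZIP proteins. In mice, C/EBP alpha is needed to form granulocytes from progenitors, C/EBP beta serves the raised neutrophil output of infection, and C/EBP epsilon drives late granule genes. Zebrafish cebp1 is a C/EBP gene of myeloid cells that has been set beside mammalian C/EBP epsilon. C/EBP delta is known from acute inflammation in mammals, and C/EBP gamma, which lacks a transactivation domain, from dimers with other bZIP proteins.

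Total counts per library ranged from 1629804 in morpholino replicate 1 to 12093109 in morpholino replicate 2. Morpholino replicate 1 stands apart, with 8041 Ensembl genes detected where the others reached 13434 to 16074. Levels of mpx, the gene whose promoter drives the reporter, were 520, 2926 and 2703 CPM (counts relative to library size, TMM-scaled) for control replicates 1, 2 and 3, against 559, 2731 and 5068 CPM for the MO replicates in the same order. Control replicate 1 and morpholino replicate 1 were thus the libraries of low mpx level. Of 15 neutrophil marker rows, 12 were high enough to be tested, and their 15 rows summed to 2247, 14876 and 18082 CPM in the control libraries, against 2999.7, 14740 and 25629 CPM in the MO libraries. Of these markers abcb9 was at 0 in every library and lyz had at most 8 counts in a library. A low count of a row does not by itself show that the transcript was absent from the cells. The targeted gene znf711 was counted 348, 134 and 60 times in the control libraries, and 1, 120 and 182 times in the MO libraries; a morpholino need not lower the transcript it targets, and the labels cannot be checked by these counts.

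The genes lie on 3 chromosomes of GRCz11. The files place cebpa (ENSDARG00000036074) on chromosome 7 at 38084986 to 38087865, minus strand, and cebpg (ENSDARG00000036073) beside it at 38089650 to 38095324, plus strand. The pair stands head to head with 1785 bases between the starts. The gene cebpb (ENSDARG00000042725) lies on chromosome 8 at 28448267 to 28449782, minus strand. Chromosome 24 holds cebpd (ENSDARG00000087303) at 35564668 to 35565927, plus strand, and cebp1 (ENSDARG00000101096) at 40820699 to 40830494, minus strand, 5.25 megabases farther on. For cebpa, cebpb and cebpd the listed transcript length of 2880, 1516 and 1260 bases equals the whole span, so these rows hold no intron, and spliced reads cannot mark their mature RNA. For cebpg and cebp1, 2461 and 8610 bases of the span lie outside the listed length.

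The data show a family led by cebpb in every library, with no member passing the test between the groups. Measured per kilobase of listed length, cebpb was the highest of the 5 genes in 6 of 6 libraries. It was also the highest of all 2263 rows that the deposited tables annotate as transcription factors in 4 libraries. In the low-mpx libraries its rank was 3 (control replicate 1) and 4 (morpholino replicate 1). The bZIP genes junbb and atf4a stood ahead in both, and hmgb2b also in the latter. By the deposited FPKM values cebpb ranked 8 and 7 there. cebpd was the one member whose morpholino libraries all lay below its controls, as was true of 5.35% of all rows tested. This held under TMM alone of 3 scalings, and cebpd did not pass.

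cebpb, the most abundant member, stood at 1164, 3953 and 6433 CPM across control replicates 1, 2 and 3, and the MO replicates in the same order stood at 1103.5, 5555 and 3399.7 CPM. The low-mpx library of each group was also the lowest for cebpb, and the groups overlapped. The neutrophil marker sum, which includes mpx itself, was lowest in the same libraries. Its part in the cebpb and cebpa values was not tested. Means were 3849.9 ± 2636 CPM in the control libraries, against 3353 ± 2226 CPM in the MO libraries (SD, n = 3 each). The log2 fold change, MO minus control, was -0.20 ± 0.65 (approximate standard error), with a 95% interval of -1.59 to 1.19 and an edgeR adjusted p of 0.9999. The interval spans 0.331-fold to 2.29-fold, and so includes a 2-fold difference in either direction. The direction turned without control replicate 3 (log2 fold change 0.39) and without morpholino replicate 1 (0.22).

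cebpa, whose mouse counterpart sets the granulocyte fate, measured 247, 445 and 769 CPM in the control libraries, against 106, 529 and 877 CPM in the MO libraries. Its lowest values were again in the low-mpx libraries and its highest in replicate 3 of each group, so the spread within a group exceeded the difference between them. The means were 487 ± 264 and 504 ± 386 CPM (SD, n = 3 each), with a log2 fold change of 0.05 ± 0.65, a 95% interval of -1.36 to 1.46 and an edgeR adjusted p of 0.9999. Of the 5 members it varied most over the 6 libraries, with 8.29 times the lowest level in the highest library. The same measure was 6.89 times for cebp1 and 5.83 times for cebpb. The lowest cebpa level, 106 CPM, came from morpholino replicate 1, the library of fewest total counts, and the next lowest was 247 CPM. The first place of cebpa by this measure rests on that library. The spread of cebpa was larger than that of 90.0% of 412 rows within 2-fold of its level. The sign of the fold change turned without control replicate 1 (-0.27), control replicate 2 (-0.003) or morpholino replicate 3 (-0.61), and the value was 0.55 without control replicate 3 and 0.52 without morpholino replicate 1. In bulk RNA, fewer neutrophils in a sort and less of a transcript per cell cannot be told apart.

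**Figure D1:**
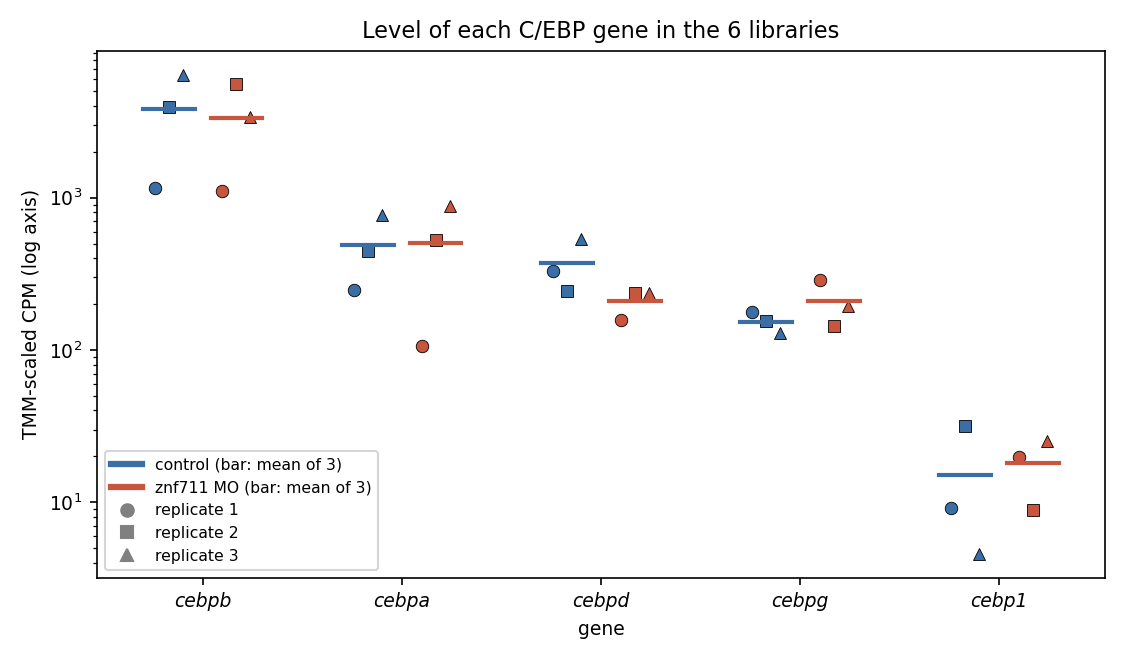
TMM-scaled CPM on a log axis for each C/EBP gene, with 1 point per library (marker shape gives the replicate) and a bar at the mean of 3 libraries. cebpb lies at 1103.5 CPM or more in all 6 libraries, cebp1 at 31.5 CPM or less, and under this scaling the groups separate for cebpd alone.

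cebpd, an inflammation-linked member, measured 331, 245 and 538 CPM in the control libraries, against 158, 236 and 235 CPM in the MO libraries. All 3 MO values were below all 3 control values, by a margin of 244.7 against 235.8 CPM at the closest. The means were 371 ± 151 and 209.8 ± 44.6 CPM (SD, n = 3 each), a log2 fold change of -0.82 ± 0.46 with a 95% interval of -1.79 to 0.15. It did not pass (edgeR unadjusted p = 0.0909, adjusted p = 0.9999). Across all rows tested, 5.35% had every morpholino library below every control library, and 7.44% did not overlap in either direction. cebpd was the 1 member of 5 that did not overlap.

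Of 3 scalings compared, the cebpd groups separated under TMM alone. With library totals the controls began at 213.7 CPM and the MO libraries reached 253.8 CPM, and with median-ratio size factors the groups overlapped too. The fold change stayed negative in every alternative fit, between -1.07 without control replicate 2 and -0.48 without control replicate 3. Summed endothelial markers also separated under TMM, at 410.4 to 530.8 CPM in the control libraries, against 105.7 to 409.8 CPM in the MO libraries. The groups were closest at 410.4 and 409.8 CPM, and the lowest sum was that of morpholino replicate 1. Of 12 rows 11 were tested, all 11 negative, where 44.3% of all rows were positive. None of the 12 was at 0 in every library. Progenitor markers summed to 433 to 515.5 and 267 to 440.1 CPM, with 8 of 10 rows tested. The part of either cell type in the cebpd values was not tested.

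cebpg, a partner for other bZIP proteins, measured 177, 155 and 129 CPM in the control libraries, against 288, 144 and 195 CPM in the MO libraries. Its highest value came from morpholino replicate 1, the library in which cebpa was lowest, and morpholino replicate 2 lay inside the control range. The means were 153.5 ± 24.0 and 209 ± 73.0 CPM (SD, n = 3 each), and the log2 fold change was 0.44 ± 0.46 (95% interval -0.53 to 1.41; edgeR adjusted p = 0.9999). Leaving out morpholino replicate 1 gave 0.13. Over the 6 libraries cebpg varied least of the 5 members, 2.23 times from lowest to highest. The head-to-head neighbours thus had unlike patterns: within each group the library of lowest cebpa was the library of highest cebpg.

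cebp1 was the rarest member. Its raw counts were 77, 256 and 28 in the control libraries, against 37, 94 and 261 in the MO libraries, or 9.10, 31.5 and 4.57 CPM against 19.9, 8.81 and 25.3 CPM. Counting error alone allows 3.04 to 6.60 CPM in control replicate 3 and 27.7 to 35.6 CPM in control replicate 2 (exact 95% Poisson intervals). The means were 15.0 ± 14.4 and 18.0 ± 8.42 CPM (SD, n = 3 each), a log2 fold change of 0.26 ± 1.19 with a 95% interval of -2.25 to 2.76 (edgeR adjusted p = 0.9999). Leaving out control replicate 2 gave 1.35, and leaving out control replicate 3 gave -0.23. The order of the libraries for cebp1 did not follow mpx: control replicate 3, with 2703 CPM of mpx, had the lowest cebp1 level.

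An unnamed gene model on an alternate scaffold for chromosome 24 is listed at like coordinates, 40821062 to 40830144 on the minus strand, and had 0 counts in all 6 libraries. A second model there, at 40819221 to 40821095 on the plus strand, had at most 8 counts. The counting of reads that align to both copies is not described in the labels, so the counts of cebp1 are uncertain. No listed row overlapped the other 4 genes.

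**Figure D2:**
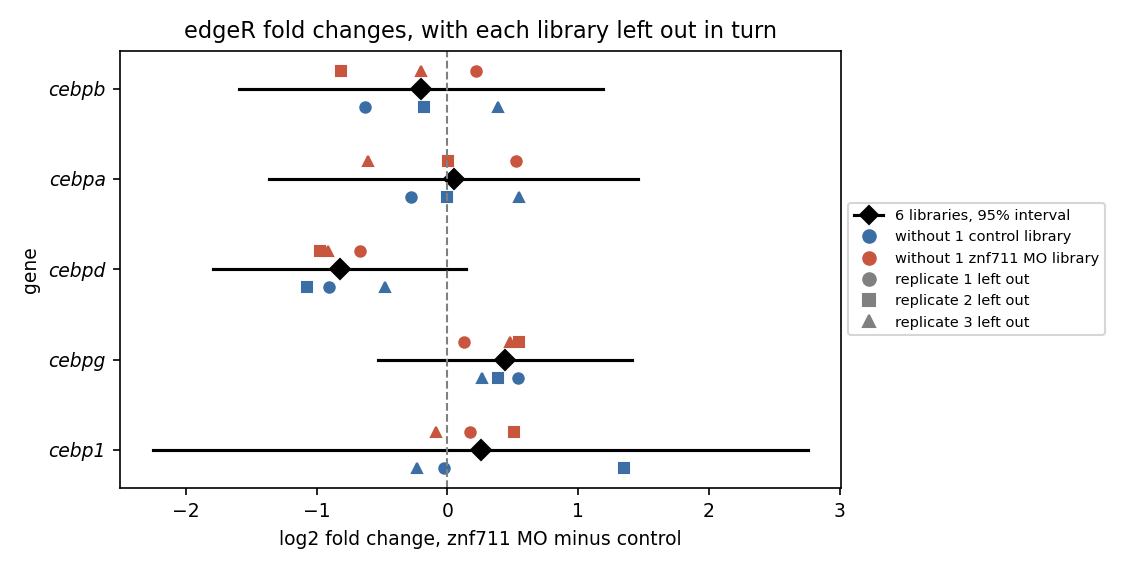
edgeR log2 fold changes (diamonds, MO minus control) with 95% intervals, and the same value after leaving out each library in turn (coloured markers, shape for the replicate). All 5 intervals include 0, and cebpd and cebpg alone keep their sign without each single library.

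Taken over all rows, edgeR called 0 of 16637 rows, which is 0%, and 0 of the 5 members. Without adjustment, 174 rows, or 1.05%, had a p under 0.05, and 0 of these were C/EBP genes. DESeq2 called 10 rows, or 0.0673%, after the same filter on low counts, and 140 rows, or 0.685%, with no such filter. limma-voom called 0 rows, or 0%, and 0 of the 5 members were called by any of these. The biological coefficient of variation was 1.09, and the median log2 fold change of all rows tested was -0.12. The median of the 5 members was 0.05, with 3 positive and 2 negative, where 44.3% of all rows were positive.

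The order of the members per kilobase was cebpb, cebpd, cebpa, cebpg and cebp1 in each of the 3 controls. In the MO libraries, replicate 2 kept this order, with cebpd and cebpa close at 187.2 and 183.6 CPM per kilobase. In morpholino replicate 1 cebpg (89.5) stood above cebpa (36.7), and in replicate 3 cebpa (304.4) stood above cebpd (186.7), all in CPM per kilobase. cebpd thus stood above cebpa in 5 of 6 libraries and cebpa above cebpg in 5 of 6, and neither pair is separated by more than the spread between libraries. The ratio of cebpb to cebpd ran from 2.92 to 19.6, and cebpg exceeded cebp1 by 1.81 to 10.4 times. By the deposited FPKM, which uses a length of 2621 in place of 3214 bases for cebpg, these counts of libraries did not change.

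As a share of the 5 genes' summed level per kilobase, cebpb made up 65.1%, 86.0% and 85.2% in the control libraries, against 73.0%, 89.7% and 79.6% in the MO libraries. The smallest cebpb shares were those of the low-mpx library in each group. The other members differed there: cebpd held 22.3% in control replicate 1 and 12.6% in morpholino replicate 1, where cebpg reached 8.98%. The cebpa share was highest in morpholino replicate 3, at 10.8%, against 3.68% to 7.26% elsewhere. cebp1 held between 0.0773% and 1.68%.

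**Figure D3:**
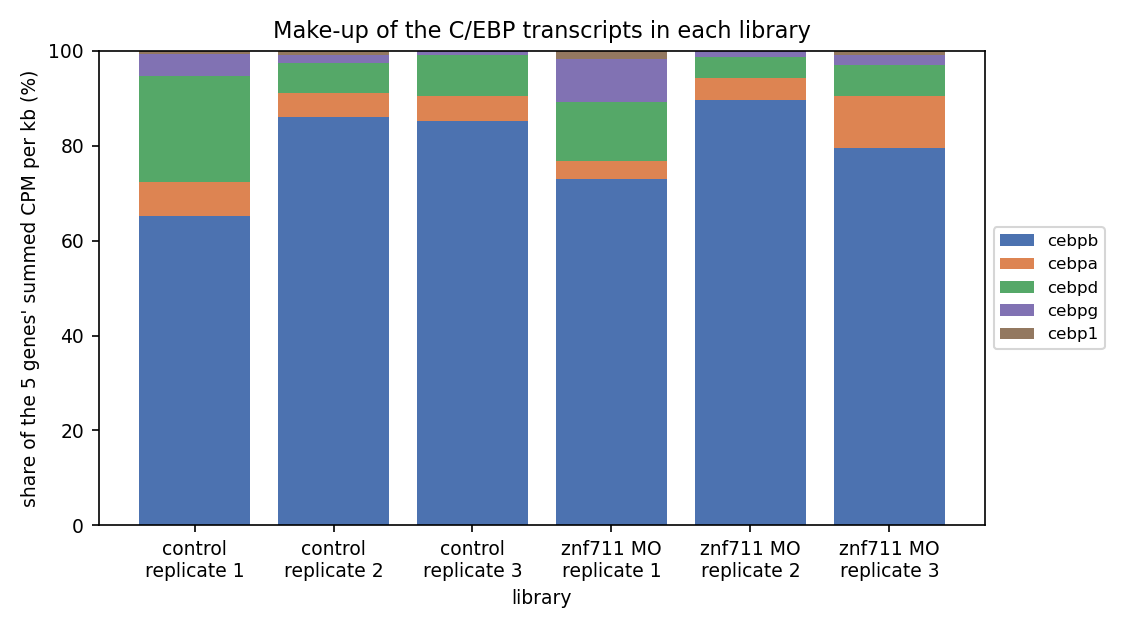
Share of each gene in the summed CPM per kilobase of the 5 C/EBP genes, as stacked bars for each library. cebpb holds between 65.1% and 89.7%, and the low-mpx libraries (replicate 1 of each group) have the smallest cebpb share of their group.

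The family also weighed differently within the bZIP class. Of 82 rows annotated as bZIP, the 5 genes held 17.9%, 33.3% and 48.1% of the summed level per kilobase in the control libraries, against 19.5%, 43.9% and 34.9% in the MO libraries. Against all transcription factor rows they held 5.76%, 14.3% and 21.7%, and 5.69%, 19.4% and 14.0%. Control replicate 1 and morpholino replicate 1 had the low value in each series, and the groups overlapped.

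Because the cells were enriched by a mpx reporter, each member was also read against mpx in the same library, as a log2 ratio of counts with 0.5 counts added to each. The log2 ratio of cebpb was 1.16, 0.43 and 1.25 in controls and 0.98, 1.02 and -0.58 in the MO libraries. Its counts thus exceeded those of mpx in every library but morpholino replicate 3. The ratio is not corrected for transcript length, so it compares libraries and does not rank cebpb and mpx by level. The cebpa ratio was -1.08, -2.72 and -1.81 in controls and within -2.53 to -2.37 in the MO libraries, an SD of 0.09 there against 0.82. The cebpb ratios of the low-mpx libraries, 1.16 and 0.98, lay inside the range of the other 4, whereas its CPM levels there were the lowest. The cebpa ratio of control replicate 1 was the highest of the 6. These libraries were singled out by mpx, the denominator, and a low denominator raises the ratio there. The cause of the low cebpb and cebpa levels was not tested.

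For cebpd, cebpg and cebp1 the ratio was highest in the low-mpx libraries, which were singled out by mpx, the denominator of the ratio. The cebpg ratio was -1.56 in control replicate 1 and -0.96 in morpholino replicate 1, and between -4.70 and -4.24 in the other 4 libraries. The cebpd ratio was -0.65 and -1.82 there, against -4.43 to -2.33 elsewhere. For cebp1 it was -5.83, -6.54 and -9.18 in the control libraries, then -4.80, -8.27 and -7.64 with the MO. Erythroid markers, with 14 of 15 rows tested and none at 0 in all libraries, summed to 14922 CPM in control replicate 1 and 19017 CPM in morpholino replicate 1, against 2531 to 13312 CPM in the other libraries. Neural markers, with 13 of 13 rows tested and none at 0 in all libraries, summed to 4235 and 4443 CPM there, against 1939 to 3432 CPM. The most abundant neural row, marcksl1b, did not follow the sum, at 1343 and 1053 CPM there against 1205.6 to 2699.9 CPM. The next, tuba1c, was at 588 and 537 CPM against 93.0 to 289 CPM. The part of erythroid and neural cells in these ratios was not tested.

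The difference of the log2 ratio between the groups was -0.57 for cebpa, -0.47 for cebpb, -1.07 for cebpd, 0.09 for cebpg and 0.28 for cebp1. Two-sided exact permutation tests on 3 against 3 libraries gave p = 0.4, 0.5, 0.5, 0.9 and 1.0 in that order, where the smallest p this design allows is 0.1. None of the 5 ratios separated the groups.

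**Figure D4:**
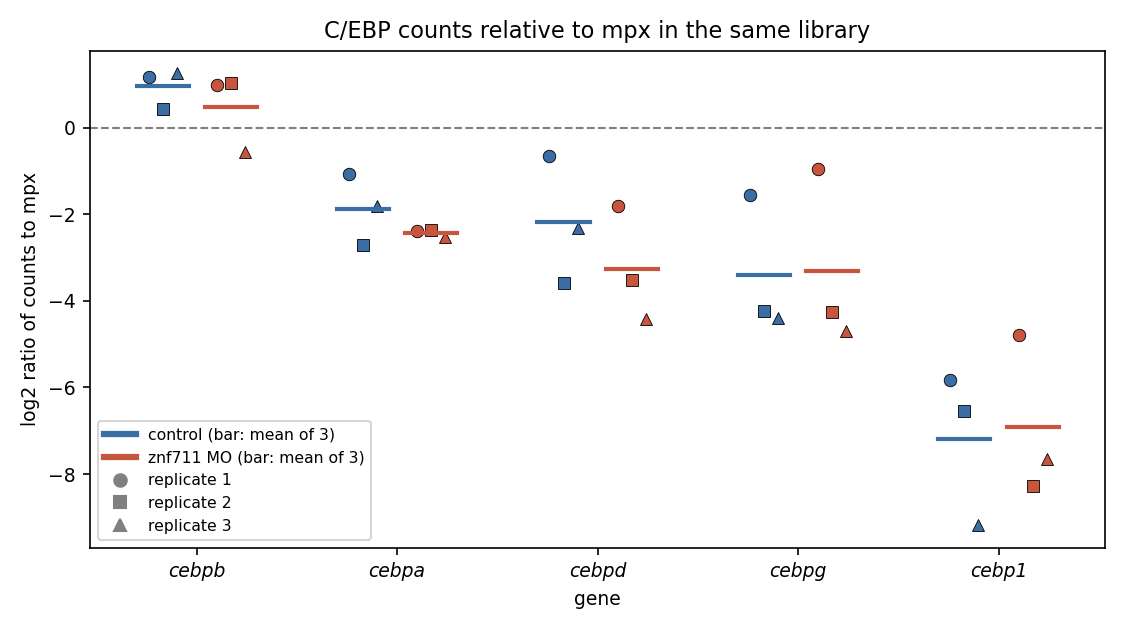
Log2 ratio of each gene's counts to those of mpx in the same library, with 1 point per library and a bar at the mean of 3. The cebpb ratios lie between -0.58 and 1.25, and replicate 1 of each group stands above the other 2 libraries for cebpd, cebpg and cebp1.

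The patterns most like each member were found by the root mean square difference of mean-centred log2(CPM + 1) over the 6 libraries, among 8715 genes. Nearest to cebpb were mfap4 (0.15), nudt12 (0.18) and cd83 (0.18). mfap4, one of the macrophage markers, measured 74.0, 285 and 529 CPM in the control libraries, against 79.4, 461 and 298 CPM in the MO libraries. Of 22 macrophage marker rows 14 were tested, and 1 row named MFAP4 was at 0. Their sums were 1117, 2218 and 3728 CPM in the control libraries, against 842, 3653 and 4012 CPM in the MO libraries. From morpholino replicate 2 to 3 the sum rose, where mfap4 and cebpb fell. Single marker rows went both ways there: the most abundant row named MFAP4 rose from 1043 to 1474 CPM, and havcr1 fell from 293 to 224 CPM. The part of macrophages in the cebpb values was not tested. Nearest to cebpa were slc29a3 (0.09), a nucleoside transporter gene, tspan36 (0.14), a tetraspanin gene, and sdc4 (0.18), a syndecan gene. In morpholino replicate 1, where 1 count was 0.537 CPM, slc29a3 stood at 2.68 and nudt12 at 2.15 CPM. Nearest patterns were picked from 8715 genes over 6 libraries, and their closeness was not tested.

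Nearest to cebpd were ptrhd1 (0.19), twist1b (0.20), a mesenchymal transcription factor gene, and mfn1b (0.21), a mitochondrial fusion gene. twist1b measured 53.5, 40.7 and 77.7 CPM in the control libraries, against 16.6, 33.7 and 35.5 CPM in the MO libraries. Nearest to cebpg were kat5a (0.12), a histone acetyltransferase gene, rrm1 (0.13), a subunit of ribonucleotide reductase, and sec24c (0.13), a vesicle coat gene. Nearest to cebp1 were exosc4 (0.25), naa80 (0.29) and trim8b (0.33). Among the members themselves the closest pair was cebpa with cebpb (0.56), and cebpa lay as near to mpx (0.55), while cebpb and cebp1 were farthest apart (1.52).

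Genes around the C/EBP factors were described by 6 lists, and no member of any list was called by edgeR. Of the bZIP partners, 16 of 20 rows were tested, 8 positive and 8 negative, with a median log2 fold change of -0.02. With 1 library left out, the median ran from -0.29 (morpholino replicate 3 out, 3 positive and 13 negative) to 0.40 (morpholino replicate 1 out, 9 and 7). The AP-1 gene junbb measured 2623, 2433 and 2209.5 CPM in the control libraries, against 2073, 2152 and 1751 CPM in the MO libraries, so the groups did not overlap, with a log2 fold change of -0.28 ± 0.41. The AP-1 gene fosab did not overlap either, at 921, 933 and 1009.9 CPM against 824, 708 and 503 CPM (log2 fold change -0.49 ± 0.41). Another bZIP gene, nfil3-5, was at 11.0 ± 5.16 and 5.96 ± 0.97 CPM. These 3 of 16 stood below the controls, where 5.35% of all rows did, and each had an edgeR adjusted p of 0.9999. With library totals the groups overlapped for all 3, and with median-ratio size factors for junbb. The AP-1 gene jun measured 2174, 2011 and 1235 CPM in the control libraries, then 1265, 1367 and 1567 CPM with the MO, and the groups overlapped (log2 fold change -0.37 ± 0.42). atf4a, the stress-response partner known to pair with C/EBP gamma in mammals, was at 1829 ± 431.5 and 1507 ± 310.4 CPM (SD, n = 3 each).

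Regulators of C/EBP genes or proteins had 11 of 14 rows tested, 7 positive and 4 negative, with a median of 0.13, but 4 positive and 7 negative without morpholino replicate 3 (median -0.08). The ETS factor gene spi1b measured 162, 390.3 and 552 CPM in the control libraries, against 198, 519 and 498 CPM in the MO libraries, low in the libraries where cebpa and cebpb were low. The Tribbles gene trib3 and the Runx partner cbfb had log2 fold changes of -0.16 ± 0.54 and 0.13 ± 0.44. Cytokine inputs had 15 of 16 rows tested, 12 positive and 3 negative, with a median of 0.68, but 6 positive and 9 negative without morpholino replicate 3 (median -0.02). il1b, an inflammatory cytokine gene, measured 1357 ± 1206 and 2407 ± 2862.5 CPM, the interleukin receptor gene il6r 367 ± 175 and 491 ± 317 CPM, and the feedback inhibitor socs3a 419 ± 261 and 374 ± 226 CPM.

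C/EBP cofactors had 16 of 16 rows tested, 10 positive and 6 negative, with a median of 0.24. With 1 library left out, the median ran from 0.02 (morpholino replicate 1 out, 9 positive and 7 negative) to 0.44 (control replicate 1 out, 13 and 3). The chromatin remodeller gene smarca4a was at 557.5 ± 98.2 and 512 ± 35.6 CPM, hdac1 at 304 ± 84.9 and 380.3 ± 109 CPM, and prmt1 at 197 ± 82.9 and 204 ± 14.5 CPM. smarca2, a second remodeller gene, measured 3.55, 13.8 and 4.24 CPM in the control libraries, against 37.6, 15.7 and 27.0 CPM in the MO libraries, with no overlap under any of the 3 scalings (log2 fold change 1.89 ± 1.18, edgeR adjusted p = 0.9999). Across all rows, 2.09% had every morpholino library above every control library.

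Genes of the mature cell had no call, and their counts of positive and negative rows turned when 1 library was left out. Granule genes had 11 of 13 rows tested, 7 positive and 4 negative, with a median of 0.44. Without morpholino replicate 3 they were 1 positive and 10 negative (median -0.39), and without control replicate 1, 3 and 9 (median -0.10). The protease gene npsn measured 699, 4173.5 and 4773 CPM in the control libraries, against 1096, 3799.9 and 4710.2 CPM in the MO libraries, and the metalloproteinase gene mmp9 127.5, 2499 and 3037 against 351.5, 2481 and 5024 CPM. Both were lowest in the low-mpx libraries, as were cebpa and cebpb. Phagocyte genes had 15 of 20 rows tested, 12 positive and 3 negative, with a median of 0.40. Without morpholino replicate 3 they were 4 positive and 11 negative (median -0.53), and without control replicate 1, 8 and 8. The actin-bundling gene lcp1 was at 1995 ± 1083 and 2372 ± 1267 CPM. The oxidase subunit gene ncf1 was at 949.9 ± 553 and 1458 ± 1602 CPM, and the phosphatase gene ptpn6 at 281 ± 205 and 358 ± 168 CPM. Every gene named from these lists had an edgeR adjusted p of 0.9999.

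**Figure D5:**
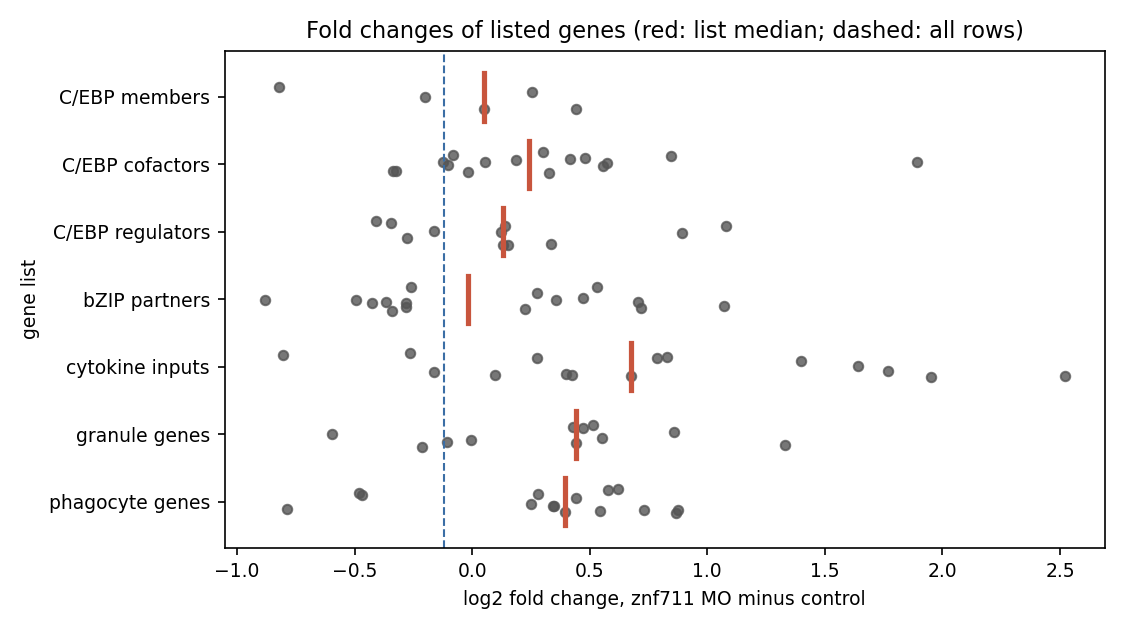
Log2 fold change (MO minus control) of each tested row in the C/EBP genes and the 6 lists, with a red bar at the list's median and a dashed line at the median of all rows, -0.12. No point passed the test, and the cytokine inputs have the highest median, 0.68, which is -0.02 without morpholino replicate 3.

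Markers of liver, fat and epidermis, tissues in which C/EBP genes are known to act in mammals, and of muscle were summed as well. The part of these tissues in the C/EBP values was not tested. Of 15 liver marker rows 4 were tested, the defining genes fabp10a and ttr were at 0 in every library, and the sums ran from 36.9 to 69.8 CPM. Of 8 fat marker rows 4 were tested, plin1 and cidec were at 0, and the sums ran from 94.3 to 264.5 CPM. Of 17 epidermis rows 7 were tested, epcam and krt5 were at 0, and the sums ran from 174.7 to 503.5 CPM. The most abundant of them, krt8, was at 76.7 to 168.7 CPM in the control libraries, then 163.6 to 229.8 CPM with the MO. Muscle markers, with 11 of 16 rows tested and mylpfa and tnnc2 at 0, summed to 180.4 to 254.1 CPM in the control libraries, against 195.8 to 391.8 CPM. Within that list myhz2, a muscle myosin gene, separated the groups, at 0.49 to 1.65 and 14.7 to 31.7 CPM (edgeR unadjusted p = 0.00682, adjusted p = 0.9999), and acta1a, a muscle actin gene, separated the other way, at 46.8 to 59.0 and 3.22 to 30.0 CPM. Each was 1 of the 11 rows tested, and both separated under all 3 scalings. Across all rows tested, 2.09% had every morpholino library above the controls and 5.35% every one below. The sums of these 4 marker lists overlapped between the groups. A marker row at 0 does not by itself show that a cell type was absent. The erythroid marker alas2 had 1 count in morpholino replicate 1, where hbae3 stood at 14342 CPM.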

How the data were processed

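Polyadenylated RNA of 3 control and 3 znf711 MO libraries was used, grouped by the sample titles. Per the file headers, the authors deposited raw read counts per gene and FPKM values, 1 table per library. GRCz11 is the build, and HISAT2 2.0.5, HTSeq, Trimmomatic, DESeq2 and edgeR the tools, that the submitters' processing notes name. Not given in the sources used here: annotation release, strand use, handling of multi-mapping reads. The deposited FPKM of 4 C/EBP rows followed from count, listed length and table total, and that of cebpg was 1.23 times higher; FPKM served as an alternative only.

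Counts were tested with edgeR 4.0.16 (R 4.3.3): filterByExpr with a minimum count of 10, TMM, robust quasi-likelihood fit on group, Benjamini-Hochberg over 16637 rows, threshold 0.05. Standard errors are the log2 fold change over the square root of F. Replicates are labelled biological. DESeq2 1.42.0, limma 3.58.1 (voom), other scalings and filters, left-out libraries and a replicate block were alternatives; DESeq2 gave an adjusted p for 14851 rows, and the others stayed without one. The code was tested on simulated data, with recovery required only at a spread below that of these data (biological coefficient of variation 1.09). That requirement does not show which changes could be found at the spread seen here. Symbols held by several Ensembl rows were kept as separate rows.

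The members and lists were chosen with earlier results of these data known. Named genes were the members, znf711 and mpx, the 3 most abundant tested rows of each list, those whose groups did not overlap, and the 3 nearest patterns per member. Marker genes are named by their level or absence, and myhz2 and acta1a because their groups did not overlap. The marker rows tie1, flt4, cd74a and tal1 did not overlap either under any of the 3 scalings, with the MO libraries below. For meis1b this held under TMM alone. Under TMM, 2 of 11 endothelial, 2 of 8 progenitor and 1 of 14 macrophage rows tested lay below, where 5.35% of all rows did. No protein or promoter sequence was used here.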

Additional observations from a re-analysis of the deposited data

How the results depend on the processing

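The count of 0 called rows became 10 with DESeq2, 140 with DESeq2 and no filter on low counts (a run added after seeing the data), 2 with edgeR and no such filter, and 0 to 2 (1 without control replicate 1, 2 without morpholino replicate 3) when 1 library was left out. No C/EBP gene and no gene of the 6 lists was called in any alternative; the muscle marker myhz2 was called by DESeq2 (log2 fold change 4.68, adjusted p = 0.0148, or 0.00424 with no filter). cebpd and cebpg kept the sign of their log2 fold change in all 17 alternatives, and the adjusted p of cebpd was 0.4537 at the lowest (edgeR with no filter on low counts). Without each library in turn, the log2 fold change ranged from -0.61 to 0.55 for cebpa, -0.81 to 0.39 for cebpb, -1.07 to -0.48 for cebpd, 0.13 to 0.55 for cebpg and -0.23 to 1.35 for cebp1. The single reversals among these were -0.27, -0.003 and -0.61 for cebpa (without control replicates 1 and 2 and morpholino replicate 3), 0.39 and 0.22 for cebpb, and -0.02, -0.23 and -0.09 for cebp1. Elsewhere the sign turned for cebpb with limma-voom (0.0121), for cebp1 without both libraries of lowest mpx level (-0.0884) and for cebpa under the replicate block (-0.25). The cause was not tested. The difference between groups in the log2 ratio to mpx ranged, without each library, from -0.99 to -0.17 for cebpa, -0.75 to 0.05 for cebpb, -1.79 to -0.31 for cebpd, -1.08 to 1.01 for cebpg and -0.77 to 0.96 for cebp1; reversals were 0.0535 for cebpb, -0.33, -0.40 and -1.08 for cebpg and -0.72 and -0.77 for cebp1. Without both low-mpx libraries these differences were -0.16 for cebpg and -0.10 for cebp1, also reversed. The replicate numbers were not taken to pair the libraries. Deviations from the group means correlated at 0.17, 0.14 and 0.04 across rows for numbers 1 to 3, against -0.164 to 0.0758 for unlike numbers. These values do not show that pairing is absent. The block called 0 rows and changed the standard error of cebpa from 0.651 to 0.407 and of cebpb from 0.645 to 0.404. For cebp1 it rose from 1.19 to 1.61. Scaling by library totals moved the median of all rows from -0.12 to -0.02, and without morpholino replicate 3 it was -0.37. Deposited FPKM, an alternative chosen after seeing the data, left the counts of libraries in each order the same. Depth limits cebp1, with 28 counts in control replicate 3.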
